A study of Mus musculus with 4 samples.

Results

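Y RNAs and vault RNA are small noncoding RNAs made by RNA polymerase III. They are described here in RAW264.7, a cell line of mouse macrophages, and in the extracellular vesicles that it releases. The 4 RNAs are those whose features in the small RNA count table carry the GENCODE M21 symbols Rny1, Rny3, Gm24379 and Vaultrc5, out of 54362 genes and single features that could be named. Each of the 4 symbols has 1 transcript in the annotation, and all 4 were found in the table. Together they held 85.5% and 93.0% of the counts of genes typed misc_RNA in the vesicle libraries labelled shDis3l2 and shNS, and 97.7% and 94.7% in the cell libraries labelled shDis3l2 and shNS.

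Y RNAs fold back on themselves so that their 5′ and 3′ ends pair into a long stem. The ring-shaped protein Ro60 binds the lower part of this stem, and the La protein, encoded by Ssb, binds the oligouridine tail. Fragments of Y RNAs are known from blood and from vesicles of many cell types. Vault RNA is a component of the vault, a barrel-shaped particle whose shell is built from major vault protein. Dis3l2 is a cytoplasmic exonuclease that degrades noncoding RNAs carrying added uridine tails, and Y and vault RNAs are among its known substrates.

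The cells carried a hairpin RNA induced by doxycycline, either shDis3l2, directed against Dis3l2, or the non-silencing control shNS. All 4 libraries therefore came from doxycycline-treated RAW264.7 cells, given 1 µg per mL for 3 days and then for the 24 h in vesicle-depleted serum over which vesicles were collected. The groups were vesicles labelled shDis3l2, vesicles labelled shNS, cells labelled shDis3l2 and cells labelled shNS, with 1 library in each. No difference below has a replicate check, and no p-value was computed. Vesicles were purified on a sucrose gradient and treated with micrococcal nuclease, which digests RNA outside them, and their RNA was extracted with another kit than that of the cells. Compartment and these steps cannot be told apart. The sources used here do not say whether the hairpin lines are single clones.

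Counts of Dis3l2 itself were not lower with the label shDis3l2. It had 1894 and 1713 counts in the vesicle libraries labelled shDis3l2 and shNS. In cells it had 13232 counts with the label shDis3l2 and 41 with the label shNS. With the label shNS, vesicles thus held 1713 counts against 41 in cells, a gap that was not tested. The table holds no read positions, so reads of the Dis3l2 message and products of a hairpin that carries Dis3l2 sequence cannot be told apart, and these counts neither check nor contradict the labels. Libraries are for this reason named by their labels throughout, and each direction below is between labels. Depth ranged from 17612144 to 19740443 counts per library. Features typed miRNA took 10.5% and 19.1% of the counts in vesicles labelled shDis3l2 and shNS, and 61.2% and 68.3% in cells labelled shDis3l2 and shNS, so levels are given as counts per 1000000 counts of all features (CPM) and also with features typed miRNA left out of the total. Of 10 macrophage markers, 8 or 9 were above 0 in every library, among them Csf1r and Lyz2, while the Mir223 hairpin was at 0 in all 4 libraries.

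The sequences show which of these RNAs can be told apart by short reads. They are printed from the GENCODE M21 transcripts (GRCm38) in DNA letters. In Rny1 and Gm24379 the capitals mark the longest exact run that both share. In Rny3 they mark the run that it shares with a transcript of Pemt.
Rny1: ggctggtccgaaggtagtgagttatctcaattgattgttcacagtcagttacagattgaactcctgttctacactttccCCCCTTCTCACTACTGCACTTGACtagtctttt
Gm24379: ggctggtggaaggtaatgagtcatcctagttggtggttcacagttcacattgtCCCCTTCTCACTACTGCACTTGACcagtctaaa
Rny3: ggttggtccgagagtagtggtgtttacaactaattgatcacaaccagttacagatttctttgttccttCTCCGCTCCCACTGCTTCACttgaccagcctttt

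Rny1, 112 nt long, lies on the minus strand of chr6:47788069-47788180, and Rny3, 102 nt long, lies on the plus strand of chr6:47781624-47781725. They are 6343 nt apart, point towards each other and overlap no other gene. Gm24379, 86 nt long, lies on the plus strand of chr2:158487602-158487687, in an intron of Ralgapb, a gene of the same strand. Vaultrc5, 143 nt long, lies on the plus strand of chr18:36801866-36802008, 2199 nt from Zmat2 and in no other gene.

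Gm24379 resembles a shortened Rny1. In a global alignment without a penalty for gaps at the ends, 73 bases were identical, or 84.9% of the length of Gm24379. As a baseline, Vaultrc5 aligned in the same way had 54.7% with Gm24379, 60.7% with Rny1 and 67.6% with Rny3, of the shorter RNA. The shared run is 24 nt long, covers positions 80 to 103 of Rny1 counted from 1 at its 5′ end, and stops 9 nt before the 3′ end of either RNA. The run is bounded by the differences C79T before it and T104C after it, with the Rny1 base and position first and the Gm24379 base last. A read that lies inside this run matches both RNAs, whereas an exact read longer than the run matches at most 1 of them. Lengths and positions of the reads are not in the table, so how many counts of Gm24379 and Rny1 came from the shared run could not be measured. Both are also given as a sum where that changes a result.

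Rny3 is the more separate sequence. Its longest run in common with Rny1 was 12 nt and with Gm24379 11 nt, and 79.4% of its bases were aligned to identical ones of Rny1. Vaultrc5 shared at most 8 nt in a row with any of the other 3 RNAs. Rny1, Rny3 and Vaultrc5 end in TTTT, the transcribed terminator of RNA polymerase III to which La binds, and Gm24379 does not. This ending was found in 2.84% of 564 transcripts typed misc_RNA. The letters GGTCCGA lie at positions 5 to 11 of both Rny1 and Rny3. Searched on the transcribed strand, 2 of these 564 transcripts held them within the first 15 nt, and these were Rny1 and Rny3 themselves. That count is therefore no separate evidence about these letters. They are not in that window of Gm24379 or Vaultrc5. In a predicted fold, the first and last 30 nt of each RNA paired with each other through 17 base pairs in Rny1, 21 in Rny3, 17 in Gm24379 and 19 in Vaultrc5.

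**Figure D1:**
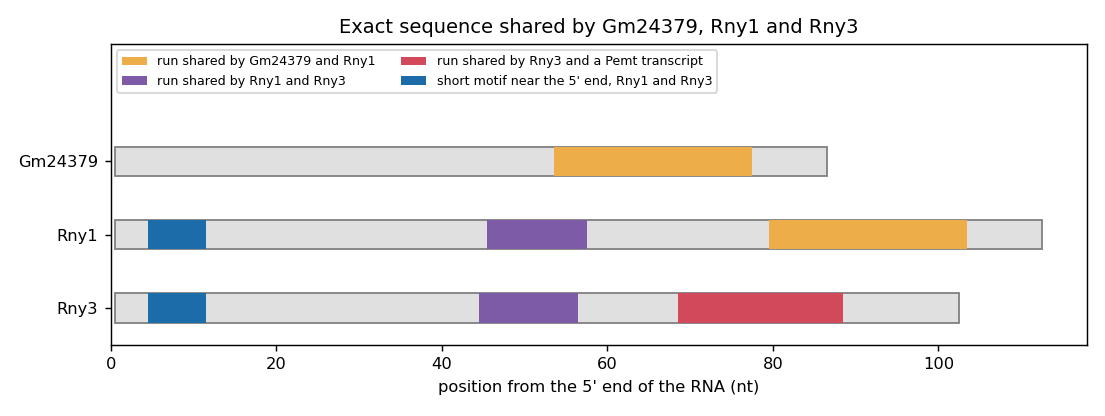
Map of Gm24379, Rny1 and Rny3, drawn to scale in nucleotides from the 5′ end of each RNA, with exact shared runs as coloured boxes. The 24 nt run shared by Gm24379 and Rny1 lies near both 3′ ends, whereas Rny1 and Rny3 share at most 12 nt, in their middle parts.

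Rny1 varied little between labels. It had 6615 CPM in vesicles labelled shDis3l2 and 8151 CPM in vesicles labelled shNS, and 1398 CPM in cells labelled shDis3l2 and 1587 CPM in cells labelled shNS. Both vesicle libraries were above both cell libraries, and in each compartment the library labelled shDis3l2 was the lower. Rny3, the other Y RNA, had 11587 CPM and 10541 CPM in vesicles labelled shDis3l2 and shNS, and 3554 CPM and 806 CPM in cells labelled shDis3l2 and shNS. Both cell libraries were thus below both vesicle libraries, and the cell library labelled shNS was the lowest. Outside miRNA, Rny3 had 12951 and 13033 CPM in vesicles labelled shDis3l2 and shNS, and 9162 and 2541 CPM in cells with those labels.

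Gm24379 had 7809 CPM in vesicles labelled shDis3l2 against 20581 CPM in vesicles labelled shNS. In cells it had 11147 CPM with the label shDis3l2 and 3991 CPM with the label shNS. It was the one of the 4 RNAs in which a cell library was above a vesicle library. Vaultrc5, the vault RNA, had 3633 CPM and 4180 CPM in vesicles labelled shDis3l2 and shNS, against 279 CPM and 231 CPM in the cell libraries with those labels. Its vesicle and cell libraries lay more than 10-fold apart under either label. With at least 4568 counts behind each value, exact 95% intervals were narrow, for example 225 to 238 CPM for Vaultrc5 in cells labelled shNS. These intervals cover counting error only, and the depth is not the limit here.

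Levels of the 4 RNAs are set side by side per kilobase of RNA. Whether counts scale with length in these libraries was not tested. On this scale Vaultrc5 was lowest of the 4 in every library. Gm24379 was highest in 3 libraries, with 239311 CPM per kb in vesicles labelled shNS, 129612 in cells labelled shDis3l2 and 46406 in cells labelled shNS. In vesicles labelled shDis3l2 Rny3 was highest, with 113599 CPM per kb against 90808 for Gm24379. Rny3 stood above Rny1 in 3 libraries. In cells labelled shNS the order of these 2 was the other way round, with 7900 CPM per kb for Rny3 and 14171 for Rny1. Neighbours in each order differed beyond counting error, and their spread between replicates is unknown.

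**Figure D2:**
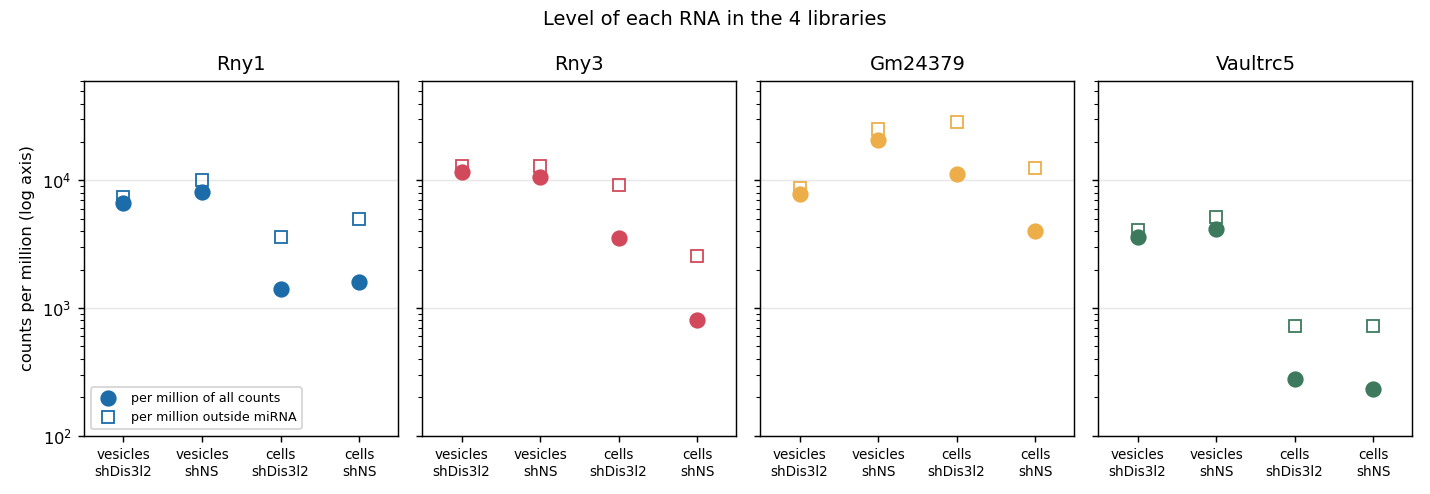
Level of each RNA in the 4 libraries in CPM on a log axis, with filled circles for CPM of all counts and open squares for CPM outside miRNA (1 library per point). Rny3 is lowest in cells labelled shNS, at 806 CPM of all counts, and Vaultrc5 is low in both cell libraries.

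The first comparison asked whether the RNAs differ between cells labelled shDis3l2 and shNS. Rny3 was 4.41-fold higher with the label shDis3l2 (95% interval 4.33 to 4.49, 65444 and 15907 counts), and Gm24379 was 2.79-fold higher (2.77 to 2.82, 205277 and 78782 counts). Rny1 had a log2 ratio of -0.18 (-0.21 to -0.16, 25746 and 31330 counts) and Vaultrc5 of 0.27 (0.21 to 0.33, 5142 and 4568 counts). A gene was called apart when its ratio was at least 2-fold and its interval excluded 1. By this rule 2 of the 4 RNAs were higher and 0 lower, against 13.8% of 3404 genes called higher and 4.99% called lower. Rny3 ranked 113 and Gm24379 243 among the 3404 ratios from the highest, while Vaultrc5 ranked 1366 and Rny1 2314. Among the 11 genes typed misc_RNA with enough counts, these RNAs included, 54.5% were called higher and 0 lower. Each value is a share of a library, so more of an RNA and less of the other RNAs cannot be told apart.

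Scaling to counts outside miRNA moved all ratios of this comparison by -0.29 on the log2 scale, and the median of all genes from 0.10 to -0.19. On that scale Rny3 was still 3.61-fold and Gm24379 2.28-fold higher with the label shDis3l2. The log2 ratio of Rny1 became -0.47. That of Vaultrc5 became -0.020, with an interval of -0.077 to 0.038 that includes 0. Again 2 of the 4 RNAs were called higher and 0 lower, beside 9.20% and 9.87% of all genes. Rny1 and Gm24379 summed were 2.25-fold higher in CPM of all counts and 1.84-fold outside miRNA, so the call for the pair depends on the scale. Rny1 alone was below 0 and the sum above 0 on both scales.

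In vesicles the label ratios took other values. Gm24379 was 2.64-fold lower with the label shDis3l2 than with shNS (2.62 to 2.65, 137541 and 374351 counts). Rny3, with 204073 and 191735 counts, had a log2 ratio of 0.14 (0.13 to 0.15), which became -0.0091 outside miRNA and was thus without a stable direction. Rny1, with 116503 and 148269 counts, was at -0.30 (-0.31 to -0.29). Vaultrc5 was at -0.20 (-0.22 to -0.19), from 63980 and 76037 counts. By the same rule 0 of the 4 RNAs were higher and 1 lower, against 10.4% of 8460 genes called higher and 2.52% called lower. The median of all genes was 0.31, so Rny1, Rny3, Gm24379 and Vaultrc5 all lay below it, at ranks 7433, 5507, 8360 and 7178 of 8460. Of 15 genes typed misc_RNA, these RNAs included, 26.7% were called higher and 13.3% lower. Outside miRNA, Gm24379 was 2.92-fold lower and again the 1 call of 4, beside 8.48% of all genes called higher and 3.56% called lower. Rny1 and Gm24379 summed had a log2 ratio of -0.99 in CPM of all counts and -1.14 outside miRNA.

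The label ratios of the compartments can be set against each other. For Gm24379 the log2 ratio of the labels in vesicles minus that in cells was -2.88 (approximate 95% interval -2.89 to -2.87), a 7.36-fold difference. It was higher in cells and lower in vesicles with the label shDis3l2, a pair of calls shared by 18 of 2637 genes with enough counts in both comparisons, or 0.683%. For Rny3 the label ratio was 4.01-fold smaller in vesicles than in cells (log2 -2.03 to -1.98). Vaultrc5 had a difference of -0.47 (-0.53 to -0.41). Rny1 had one of -0.12 (-0.14 to -0.09), which was 0.027 outside miRNA. Rny1 and Gm24379 summed had a difference of -2.16. With 1 library in each group, these differences were not tested.

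**Figure D3:**
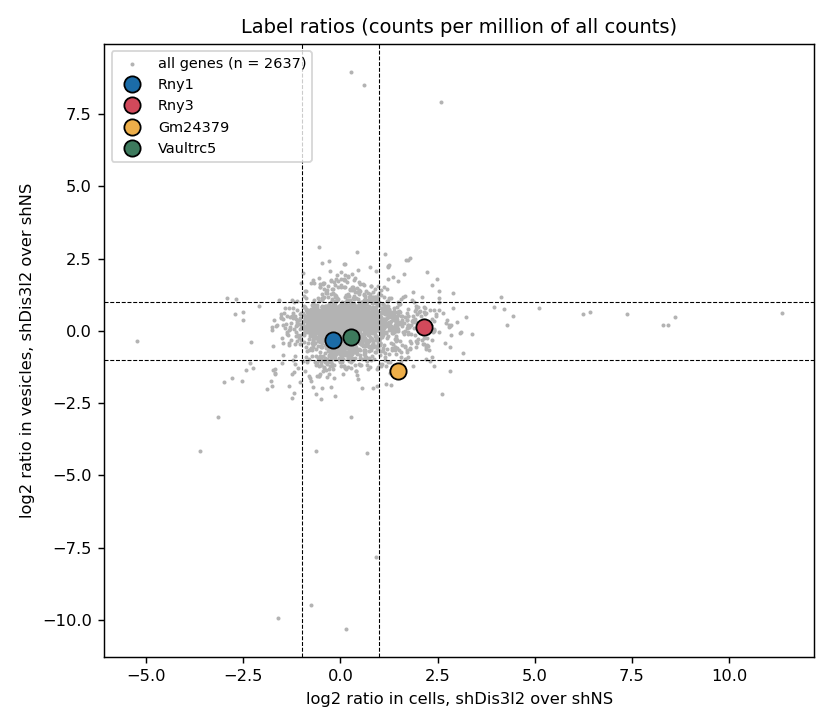
Log2 ratio of the labels (shDis3l2 over shNS, CPM of all counts) in vesicles against that in cells for 2637 genes with at least 100 counts in both comparisons (grey) and for the 4 RNAs (coloured), with dashed lines at 2-fold. Rny3 lies past 2-fold in cells only, Gm24379 is past 2-fold in opposite directions, and Rny1 and Vaultrc5 lie within 2-fold on both axes.

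The next comparison asked which RNAs take a larger share of vesicle than of cell libraries. Vaultrc5 was 13.0-fold higher in vesicles than in cells with the label shDis3l2 (95% interval 12.6 to 13.4) and 18.1-fold higher with the label shNS (17.5 to 18.6). Rny3 was 3.26-fold higher with the label shDis3l2 (3.23 to 3.29) and 13.1-fold higher with shNS (12.9 to 13.3). Rny1 was 4.73-fold higher with the label shDis3l2 (4.67 to 4.80) and 5.14-fold higher with shNS (5.07 to 5.20). Gm24379 was 1.43-fold lower in vesicles than in cells with the label shDis3l2 (1.42 to 1.44), but 5.16-fold higher with shNS (5.12 to 5.20). Rny1 and Gm24379 summed had a log2 ratio of 0.20 with the label shDis3l2, within 2-fold, and of 2.36 with shNS. In CPM of all counts and with the label shDis3l2, the call of Rny1 and the direction of Gm24379 thus hold only for the 2 RNAs counted apart.

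Most genes were higher in vesicles on this scale. With the label shDis3l2, 3 of the 4 RNAs were called higher and 0 lower, against 76.9% of 7387 genes called higher and 12.9% called lower. With the label shNS, 4 of 4 were called higher, against 74.6% of 6852 genes called higher and 13.6% called lower. These counts are near the background and say little about the RNAs themselves. The median log2 ratio of all genes was 2.42 with the label shDis3l2 and 2.19 with shNS. Rny1, at 2.24 and 2.36, was close to both medians, and Gm24379, at -0.51 and 2.37, was close to the second. Vaultrc5, at 3.70 and 4.17, stood above both medians, at ranks 1436 of 7387 and 877 of 6852. Rny3, at 1.71 and 3.71, stood below the median with the label shDis3l2, at rank 4971, and above it with shNS, at rank 1147.

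Outside miRNA the vesicle over cell ratios were smaller. Vaultrc5 was 5.64-fold higher in vesicles with the label shDis3l2 and 7.08-fold with shNS. Rny1 was 2.05-fold and 2.01-fold higher with these labels, at the edge of the call. Rny3 was 1.41-fold and 5.13-fold higher. Gm24379 was 3.29-fold lower with the label shDis3l2 and 2.02-fold higher with shNS. Rny1 and Gm24379 summed were 2.01-fold lower with the label shDis3l2 and 2.02-fold higher with shNS. With the label shDis3l2, 2 of the 4 RNAs were then called higher and 1 lower, beside 55.7% and 17.7% of all genes. With the label shNS, 4 were called higher, beside 45.3% called higher and 20.0% called lower. The medians of all genes were 1.21 and 0.84 on this scale, which moves every gene alike and leaves the ranks as they were. Markers of erythroid cells and serum, listed because the medium held serum, summed to 43.0 and 57.6 CPM in vesicles labelled shDis3l2 and shNS, against 8.53 and 7.35 CPM in cells with those labels. Of the 8 such markers in the table, 4 and 3 were at 0 in the vesicle libraries and 4 in each cell library. Hba-a1 and Hbb-bt were at 0 in all 4 libraries. The erythroid miRNA gene Mir144 had 266 and 477 counts in vesicles labelled shDis3l2 and shNS, against 0 and 5 in cells with those labels. Mir451a had 157 and 376 counts in these vesicles, against 3 and 4 in cells, and the globin gene Hbb-bs had 171 and 67, against 5 and 4. Mir122 of the same list was at similar levels in both, with 9.25 and 6.87 CPM in vesicles and 8.04 and 6.69 CPM in cells. It had 148 and 132 counts in cells, most of the 157 and 145 counts of all these markers there. The part of these markers in the vesicle levels was not tested.

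**Figure D4:**
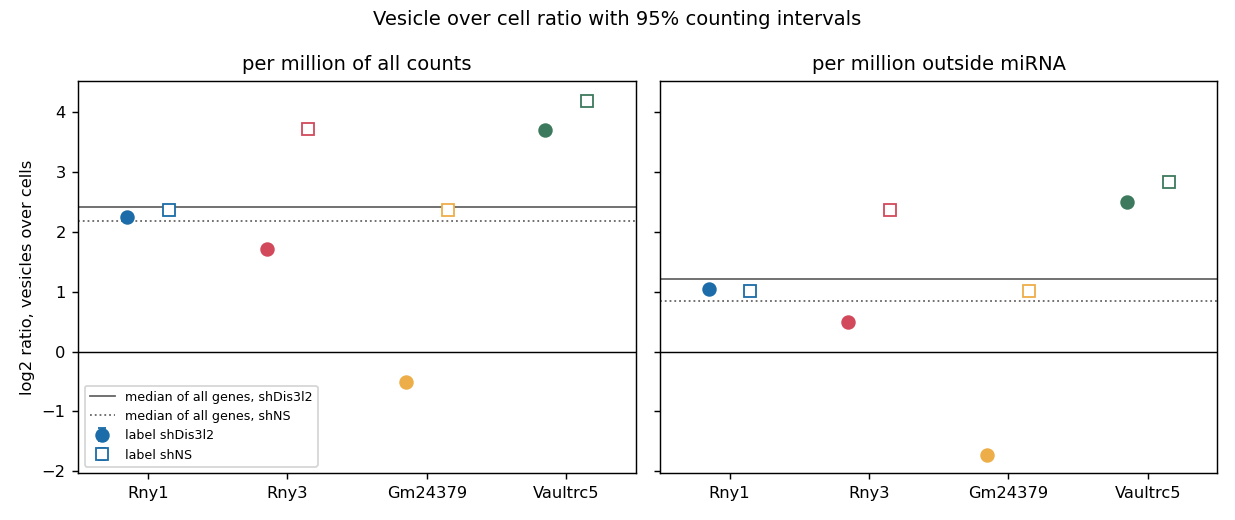
Log2 ratio of vesicles over cells for each RNA with the label shDis3l2 (filled circles) and shNS (open squares), from CPM of all counts (left) and CPM outside miRNA (right); bars are 95% counting intervals, mostly smaller than the symbols, and grey lines are the medians of all genes. Vaultrc5 is above both medians on both scales, and Gm24379 is below 0 with the label shDis3l2.

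Ratios between the RNAs of 1 library do not depend on how libraries are scaled. The ratio of Rny3 to Rny1 counts was 1.75 in vesicles labelled shDis3l2 (95% interval 1.74 to 1.76) and 1.29 in vesicles labelled shNS (1.28 to 1.30). In cells it was 2.54 with the label shDis3l2 (2.51 to 2.58), against 0.508 with the label shNS (0.498 to 0.518). Between labels, this ratio differed 5.01-fold in cells and 1.35-fold in vesicles, so Rny1 and Rny3, counted apart, did not keep 1 proportion. Reads shared by Rny1 and Gm24379 may be divided between them by the assignment, so their sum is also given. In cells the log2 label ratio, in CPM of all counts, was 2.14 for Rny3 and 1.17 for the sum. In vesicles it was 0.14 for Rny3 and -0.99 for the sum. Against the sum, Rny3 was thus higher with the label shDis3l2 by similar amounts in both compartments. The wide gap between compartments holds only for Rny1 counted apart.

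The ratio of Gm24379 to Rny1 counts was 2.52 in vesicles (2.51 to 2.54) and 2.51 in cells (2.48 to 2.55) with the label shNS. These values overlap within counting error. With the label shDis3l2 it was 1.18 in vesicles (1.17 to 1.19) and 7.97 in cells (7.87 to 8.08). The ratio of Vaultrc5 to Rny1 counts was 0.549 and 0.513 in vesicles labelled shDis3l2 and shNS, and 0.200 and 0.146 in cells with those labels. Vault RNA was thus higher relative to Rny1 counted apart in vesicles than in cells under each label, 2.75-fold with shDis3l2 and 3.52-fold with shNS. Relative to Rny3 it was 3.99-fold and 1.38-fold higher with these labels. The log2 vesicle over cell ratio was 3.70 and 4.17 for Vaultrc5, and 0.20 and 2.36 for Rny1 and Gm24379 summed. Against the sum, vault RNA was thus also higher in vesicles, but by more with shDis3l2 than with shNS. In cells, the log2 label ratio of Vaultrc5, 0.27, was below the 1.17 of the sum.

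Of the summed counts of the 4 RNAs, Gm24379 made up 26.3% and 47.4% in vesicles labelled shDis3l2 and shNS, and 68.1% and 60.3% in cells with those labels. Rny3 made up 39.1% and 24.3% in the vesicle libraries and 21.7% and 12.2% in the cell libraries. Rny1 made up 22.3% and 18.8% in vesicles, and 8.54% and 24.0% in cells. Vaultrc5 made up 12.3% in vesicles labelled shDis3l2, against 9.62% in vesicles labelled shNS, 1.70% in cells labelled shDis3l2 and 3.50% in cells labelled shNS. The widest Wilson 95% interval was that of Gm24379 in cells labelled shNS, 60.1% to 60.6%.

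**Figure D5:**
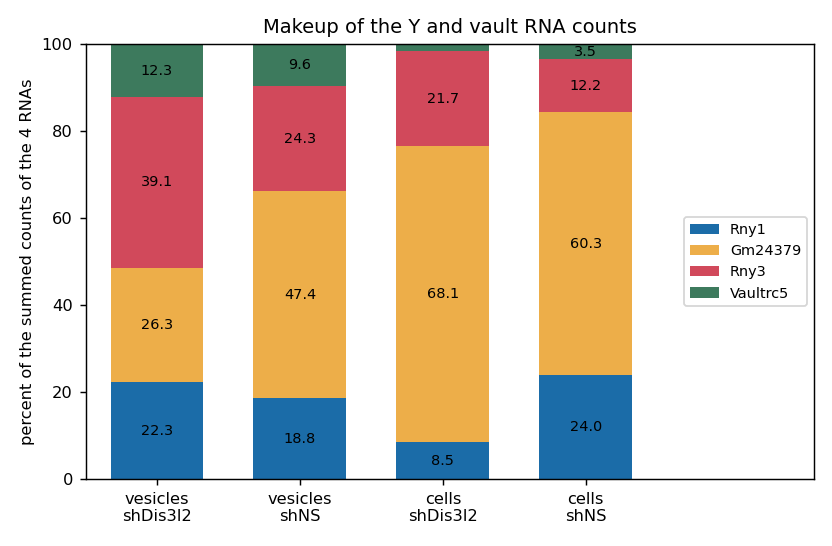
Share of each RNA in the summed counts of Rny1, Gm24379, Rny3 and Vaultrc5, in percent, 1 stacked bar per library. Gm24379 is the largest part except in vesicles labelled shDis3l2, where Rny3 takes 39.1%.

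Messages of proteins that bind or modify Y and vault RNAs were seen as fragments with few counts. Of 7 partners of Y RNAs, 5 had enough counts in cells, and of these 2 were called higher with the label shDis3l2 and 0 lower, beside 13.8% and 4.99% of all genes. They were Ncl, for nucleolin (2459 and 498 counts, log2 2.40), and Ybx1, for a cold-shock-domain protein (72 and 28 counts, log2 1.45). Trove2, the message of Ro60, had 50 and 72 counts (log2 -0.42). The list's median was 0.39, beside 0.10 for all genes. In vesicles all 7 had enough counts. With the label shDis3l2, 0 were called higher or lower, beside 10.4% and 2.52% of all genes. Their median was 0.23, beside 0.31 for all genes. Ssb, the message of La, had 91 and 107 counts there, and Trove2 229 and 152.

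Of 5 partners of vault RNA, 1 had enough counts in cells, the splicing factor gene Srsf2 (90 and 60 counts, log2 0.68). In vesicles all 5 were measured and 0 were called, beside 10.4% of all genes called higher and 2.52% called lower. The median of the 5 was 0.24, beside 0.31 for all genes. Among them were Mvp, for the major vault protein (123 counts with the label shDis3l2 and 80 with shNS), Tep1 (131 and 147), Parp4 (58 and 62), and Nsun2, for a methylase of vault RNA (303 and 265). Between compartments, 4 vault partners were measured and all 4 were called higher in vesicles under each label, where 76.9% (shDis3l2) and 74.6% (shNS) of all genes were. Their medians were 1.89 with the label shDis3l2 and 2.16 with shNS, below the medians of all genes, 2.42 and 2.19, and below the 3.70 and 4.17 of Vaultrc5.

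Of 14 genes for tailing and trimming of noncoding RNA, 3 were measured in cells, and 1 was called higher with the label shDis3l2, beside 13.8% of all genes. This was Dis3l2 itself, whose counts may hold products of the hairpin. The median of the 3 was 0.36. In vesicles 11 were measured and 1 was called higher, near the 10.4% of all genes. This was Tent4a, for a nucleotidyltransferase (457 counts with the label shDis3l2 and 222 with shNS, log2 1.09). Scaling to counts outside miRNA moved every label ratio in vesicles by -0.15 on the log2 scale, which takes Tent4a below 2-fold. The median of the 11 was 0.57, beside 0.31 for all genes. Other RNAs of RNA polymerase III did not share 1 direction in cells either. In cells, Rn7sk, the 7SK RNA that holds an elongation factor, had 1159 and 577 counts (log2 1.11) with the labels shDis3l2 and shNS. Rn7s1, the 7SL RNA of the particle that targets secreted proteins, was at -0.25 and Rpph1, the RNA of RNase P, at -0.19 (-0.45 to 0.08). In vesicles these 3 were at 0.42, 0.62 and 0.80, beside a median of 0.31 for all genes. On the same scale Rny3 was at 0.14, and Rny1, Gm24379 and Vaultrc5 were below 0.

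The genes most like each RNA across the 4 libraries were found by the distance between log2 CPM centred on their mean, over 2052 genes with at least 1000 counts. Vaultrc5 lay closest to a mature leucine tRNA with the anticodon CAA (distance 0.16), then to Fam168b (0.20) and Ldha (0.20). Rny1 lay closest to Atp2b1 (0.15), Mettl14 (0.15) and Txnip (0.19). Rny3 lay closest to Gm25772, typed as an snRNA (0.30), Ppia (0.31) and the 5S rRNA gene n-R5s106 (0.46). Gm24379 had no near neighbour, since the closest gene, an alanine tRNA with the anticodon AGC, was at 0.76, followed by Top2a (0.78) and Gm25360 (0.84). With 4 libraries, such distances describe these libraries only.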

How the data were processed

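Small RNA of RAW264.7 cells and vesicles was prepared with a QIAseq miRNA kit, 1 library per group, and sequenced to 50 nt, per the labels' protocols. The table deposited by the authors holds estimated counts for each transcript or tRNA. Of its values above 0, 6.56% were whole within 0.001. Per the submitters' processing notes, cutadapt, Salmon and Novoalign were used, with GRCm38 and mm10 named. Versions, and whether reads were collapsed to molecules, are not given in the sources used here.

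Estimated counts were rounded, named from GENCODE M21 (GRCm38) and summed by gene. Transcripts without a name (1201, at most 0.134% of a library) entered totals only. Log2 ratios used counts per 1000000 counts of all features and a pseudocount of 0.5, with exact conditional (Clopper-Pearson) 95% intervals. Genes with at least 100 counts over the 2 libraries formed the background. The difference of 2 ratios has an approximate interval from the 4 Poisson counts. Reads shared by Rny1 and Gm24379 may be divided between them by the assignment. Alternatives were 5 other scales, including edgeR 4.0.16 TMM factors and DESeq2 1.42.0 size factors, a pseudocount of 5, unrounded values, a sum of Rny1 and Gm24379, and count minimums of 10, 1000 and none. Folds were predicted with RNAfold 2.7.2 and alignments made with Biopython 1.88. Python 3.11.15, SciPy 1.17.1 and R 4.3.3 were used. tRNA features were not compared by sequence.

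The 4 RNAs and the lists were chosen with earlier results of these data known. Named genes are the 4 RNAs, members of the lists with at least 100 counts over the 4 libraries, the 3 nearest genes by pattern, noncoding features that share at least 20 nt with them, and Dis3l2. Pemt and Ralgapb were added after their values were seen.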

Additional observations from a re-analysis of the deposited data

Results flagged for a closer look

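Gm24379 took opposite directions. With the label shDis3l2 its log2 ratio to shNS was -1.40 in vesicles and 1.48 in cells. Its vesicle over cell ratio was -0.51 with the label shDis3l2 and 2.37 with the label shNS. Vaultrc5 also changed sign, with a label ratio of -0.20 in vesicles and 0.27 in cells, both within 2-fold. Outside miRNA its ratio in cells was -0.020 (-0.077 to 0.038), and the sign change was not seen. With 1 library per group, none of these differences was tested.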

How the results depend on the processing

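No paired analysis was possible because each group has 1 library, and no replicate could be left out. Of 150 alternative values for the 20 ratios and differences of the 4 RNAs, 130 kept their direction and their side of 2-fold. The values that did not keep them came from another scale, which moves every gene alike, or from the sum of Rny1 and Gm24379. Which scale suits these libraries was not tested. The label ratio of Vaultrc5 in cells was -0.020 outside miRNA. Outside miRNA and tRNA it was 0.0082 (-0.050 to 0.066), which kept its direction with an interval that includes 0. The label ratio of Rny3 in vesicles was -0.0091 outside miRNA, -0.21 outside miRNA and tRNA, -0.12 under TMM scaling and -0.066 using DESeq2 size factors. The vesicle over cell ratio with the label shDis3l2 was, under those 4 scales, 0.50, 0.93, 0.50 and 0.46 for Rny3 and -1.72, -1.29, -1.72 and -1.76 for Gm24379. With DESeq2 size factors that of Rny1 was 0.99. The difference between label ratios of Rny1 was 0.027 outside miRNA. Summing Rny1 and Gm24379 gave label ratios of 1.17 in cells and -0.99 in vesicles, a vesicle over cell ratio of 0.20 with the label shDis3l2, and a difference of -2.16. The pair's share of the 4 RNAs was then 48.7% and 66.1% in vesicles labelled shDis3l2 and shNS, and 76.6% and 84.3% in cells.

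The counts of genes called apart, 639 for the labels in cells, 1096 for the labels in vesicles, and 6638 (shDis3l2) and 6046 (shNS) for vesicles over cells, followed the count minimum. They were 3942, 3322, 13799 and 13242 with a minimum of 10, then 163, 447, 1307 and 983 with 1000, and 5085, 4145, 15190 and 14494 with none. Fewer or more genes enter at each minimum. Outside miRNA, a scale added for these counts after the data were examined, the split in cells was 9.20% higher and 9.87% lower.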

Other observations

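Other annotated copies of Y and vault RNA had few counts. Besides the 4 RNAs, 8 loci typed misc_RNA share at least 20 nt in a row with one of them, and together they had 367 counts over the 4 libraries. Of these, 1 had at least 100 counts. This was Gm24045, which shares 21 nt with Rny1 at positions 11 to 31, away from the run that Gm24379 shares. It had 41 and 99 counts in vesicles labelled shDis3l2 and shNS, and 116 and 23 in cells with those labels. Its log2 label ratio was -1.22 in vesicles (95% interval -1.79 to -0.69) and 2.41 in cells (1.78 to 3.15), that is, below 0 in vesicles and above 0 in cells as for Gm24379. The ratios of Rny1 were -0.30 and -0.18.

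Pemt, the gene of a phosphatidylethanolamine methyltransferase, shares the 20 nt run in capitals with Rny3, at positions 69 to 88 of Rny3. A protein-coding Pemt transcript of 953 nt had 1582 and 1730 counts in vesicles labelled shDis3l2 and shNS, and 687 and 87 in cells with those labels. Its label ratio was -0.08 in vesicles and 3.07 in cells, and Rny3 had 0.14 and 2.14. Reads inside that run match both RNAs, and the part of such reads in the Pemt counts was not measured.

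Ralgapb, whose intron holds Gm24379, had 143 and 167 counts in vesicles labelled shDis3l2 and shNS, and 31 and 40 in cells. Its label ratios were -0.18 in vesicles (-0.51 to 0.15) and -0.26 in cells (-0.99 to 0.45), and both intervals include 0.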
